A study of Mus musculus with 4 samples.

Results

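Read counts were examined for 57 cell cycle and DNA replication genes, a list drawn up by gene function that holds 24 genes of S phase, 24 genes of G2 and mitosis (G2/M), 4 transcription factors and 5 regulators of G1. A row of the count tables was a member where its gene symbol equaled a symbol of the list, and all 57 members were found among the 55367 gene rows. No measured value entered the rule, but the list was chosen with earlier results of these data known.

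Cells copy their DNA in S phase and separate it in mitosis, and the genes for each step are transcribed in waves. In late G1, D-type cyclins with their kinases phosphorylate the retinoblastoma protein, which releases E2F factors that switch on the S phase genes. Later, FOXM1 and B-MYB (the product of Mybl2) act with the MuvB complex at CHR elements of G2/M genes, while the inhibitors p21 (Cdkn1a) and p27 (Cdkn1b) hold cyclin-dependent kinases in check. In tumors, activated T cells, melanoma cells and some macrophages divide, so that these transcripts are not markers of a particular cell type.

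The data were 4 libraries of polyadenylated mouse RNA, 2 labeled WT and 2 labeled KO, here called WT 1, WT 2, KO 1 and KO 2 after their titles. Per the labels, CD45.2+CD8+ cells had been sorted from dissociated tumors that the melanoma line B16-F10 had formed in mice. The series compares WT mice, which the study's methods give as C57BL/6 for the tumor model, with mice whose floxed Satb1 alleles are deleted by ThPOK-cre or by E8I-cre, the former active in the CD4 lineage and the latter in mature CD8+ cells. Which Cre the label KO stands for, the age and sex of the animals behind each library, any treatment other than the tumor, and whether animals were pooled were not stated in the labels. For its mice in general, the study's methods give an average age range and mixed sexes. Nothing in the labels said that the libraries of a group came from separate animals, so that p-values measured only the spread between these libraries, which may be technical.

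Gene counts ran from 4017875 (WT 1) to 5382915 (KO 2) per library, so that 3 counts corresponded to between 0.524 and 0.902 normalized CPM, the counts per fixed library total after scaling by the trimmed mean of M-values. No pair of libraries agreed within sampling noise. Satb1, the gene targeted in the series, was counted 7 times in WT 1 and 5 in WT 2, but 131 times in KO 1 and 55 in KO 2, against the direction of its label. Per count on the 10 T cell markers named below, Satb1 had 0.0259, 0.011, 0.012 and 0.00829 counts in the same libraries, values that overlapped between the labels. The groups are therefore called by their labels throughout, and each direction given below is one between labels. The X-linked Xist (435, 216, 0 and 3 counts in the order WT 1, WT 2, KO 1, KO 2) and the Y-linked Ddx3y (0, 0, 188 and 81) divided the libraries as the labels did, so sex and label cannot be told apart. The sort label was not matched by the RNA either: the 10 T cell markers summed to between 81.2 (WT 1) and 2077 (KO 1) normalized CPM, against 20264 (KO 1) to 42688 (WT 2) for 13 markers of macrophages and monocytes. All 10 T cell markers had counts in every library.

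The cell cycle members were, as a list, higher in the libraries labeled KO, although no member passed the threshold. KO against WT, the fitted log2 fold change lay above 0 for 51 of the 57 members, with a median of 1.60, beside a median of 0.05 over the 11837 genes tested. All 57 members passed the filter on low counts, but 5 of them (Bub1, Cenpe, Cenpf, Nusap1 and Hmmr) reached its minimum in no library labeled WT. These 5 passed through the libraries labeled KO alone and so had to be higher there. In the quasi-likelihood test of edgeR, 0 of 57 had an adjusted p (Benjamini-Hochberg over all genes) below 0.05, where 68 genes (0.574%) had one in all. At an unadjusted p below 0.05, 32 members (56.1%) were higher with the label KO and 0 were lower, beside 9.44% of all genes tested that were higher and 4.23% that were lower. DESeq2 called 13 members, all higher (beside 2.96% of all genes called higher). The edgeR test without a filter on low counts called 18, all higher, with the 5 named above among them (beside 2.38% of 21241 genes). Of the 11837 genes that passed the filter it called 520, in either direction. Both libraries labeled KO lay above both labeled WT for 43 members (75.4%, beside 25.3% of all genes tested), both lay below for 4 (Cdt1, Gins2, E2f1 and Ccnd1, beside 22.6% of all genes), and for 10 the groups overlapped. Of the 52 members that reached the minimum in both groups, 46 were higher, 27 (51.9%) had an unadjusted p below 0.05 and 8 (15.4%) were called by DESeq2, beside 6.74% and 1.71% of the 11178 genes that did so. The count of calls depended on which libraries were used: edgeR called 3 members without WT 1, 12 without WT 2, 13 without KO 2 and 0 without KO 1. All were higher, beside 0.921%, 1.84%, 4.33% and 0.727% of all genes called higher in the same order. In bulk RNA, fewer cells of a type and less RNA per cell cannot be told apart.

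The promoters of the members were read for words known from cell cycle genes. Windows from RefSeq (assembly GRCm38.p6, 250 bases before to 50 bases after the start) were matched by symbol for 45 of the 57 members and were searched on both strands for 3 kinds of word: TTCCCGC or TTGGCGC, forms of the E2F site, TTTGAA, the core of the CHR element, and CCAAT, the box bound by NF-Y. None of these words contains another, but a CCAAT box on the other strand can share letters with TTGGCGC. An E2F word was in 12 of 20 S phase windows (60%) and 3 of 19 G2/M windows (15.8%), beside 9.21% of 16522 windows of protein-coding genes. The CHR word was in 14 of 19 G2/M windows (73.7%) and 2 of 20 S phase windows (10%), beside 15.5% of all. Every G2/M window with the CHR word also held CCAAT, a combination found in 6.31% of all windows. The CHR word was in the windows of Aurka, Bub1b, Ccnb2, Cdc20, Cdk1, Cenpa, Cenpf, Hmmr, Kif11, Kif23, Mki67, Plk1, Top2a and Ube2c, and of Cdc45 and Mcm2 among the S phase genes. The E2F words were in those of Cdc6, Cdk2, Cdt1, Mcm3, Mcm5, Mcm6, Mcm7, Pola1, Pold1, Rfc4, Rrm1 and Uhrf1, and of Ccnb1, Cdk1, Mki67 and E2f2. A match is a run of letters and not evidence that a factor binds there.

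**Figure D1:**
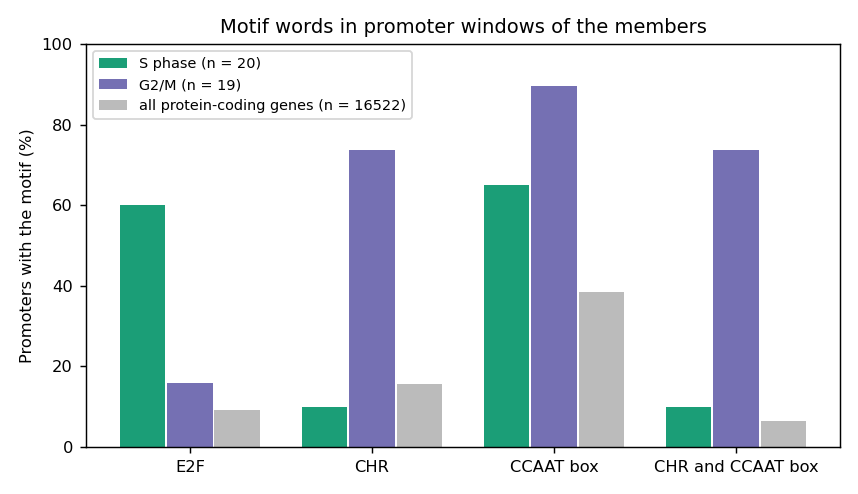
Share of promoter windows (y axis, percent, from 0) that hold each word (x axis) for S phase members, G2/M members and all protein-coding genes. The E2F bar of the S phase genes stands at 60% and the CHR bar of the G2/M genes at 73.7%, each well above its gray bar for all genes.

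The 250 bases before the start are shown for 3 G2/M and 3 S phase members, so that the placement of the words can be seen. They were the most counted members of each class with the word of the class in this stretch, among those whose stretch lay outside the gene as annotated by GENCODE M21, which left out Ube2c, Cdk1 and Cdc20 among others. Capitals mark the CHR word in the G2/M sequences and the E2F word in the S phase sequences, in either orientation (TTCAAA and GCGCCAA are the reverse complements of TTTGAA and TTGGCGC). Each is written 5′ to 3′ on the strand of the gene, with mouse GRCm38.p6 coordinates.
Top2a, chr11:99024190-99024439, minus strand: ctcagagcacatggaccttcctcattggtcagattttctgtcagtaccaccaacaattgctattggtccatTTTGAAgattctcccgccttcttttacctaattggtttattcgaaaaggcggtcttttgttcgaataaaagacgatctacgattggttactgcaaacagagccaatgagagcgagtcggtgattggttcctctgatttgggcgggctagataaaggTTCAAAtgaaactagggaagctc
Ccnb2, chr9:70421555-70421804, minus strand: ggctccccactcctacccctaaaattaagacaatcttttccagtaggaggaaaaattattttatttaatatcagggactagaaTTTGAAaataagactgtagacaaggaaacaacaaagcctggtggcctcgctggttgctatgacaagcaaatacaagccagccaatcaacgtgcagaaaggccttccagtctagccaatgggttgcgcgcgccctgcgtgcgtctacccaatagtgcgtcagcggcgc
Mki67, chr7:135716380-135716629, minus strand: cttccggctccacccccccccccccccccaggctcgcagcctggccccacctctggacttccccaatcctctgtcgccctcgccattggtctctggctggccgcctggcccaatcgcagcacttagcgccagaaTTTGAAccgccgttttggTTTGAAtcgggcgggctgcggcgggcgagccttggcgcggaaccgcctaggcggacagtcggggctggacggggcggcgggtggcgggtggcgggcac
Mcm6, chr1:128359706-128359955, minus strand: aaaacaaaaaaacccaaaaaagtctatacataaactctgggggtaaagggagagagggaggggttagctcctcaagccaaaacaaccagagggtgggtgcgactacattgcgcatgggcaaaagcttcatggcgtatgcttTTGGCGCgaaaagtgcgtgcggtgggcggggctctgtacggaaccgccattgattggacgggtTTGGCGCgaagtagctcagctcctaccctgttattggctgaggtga
Mcm5, chr8:75109259-75109508, plus strand: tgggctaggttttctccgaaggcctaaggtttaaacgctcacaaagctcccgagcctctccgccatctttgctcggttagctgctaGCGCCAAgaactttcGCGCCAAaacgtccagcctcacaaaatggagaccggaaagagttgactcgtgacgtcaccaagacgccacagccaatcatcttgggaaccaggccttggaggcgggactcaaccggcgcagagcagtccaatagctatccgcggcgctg
Rrm1, chr7:102441445-102441694, plus strand: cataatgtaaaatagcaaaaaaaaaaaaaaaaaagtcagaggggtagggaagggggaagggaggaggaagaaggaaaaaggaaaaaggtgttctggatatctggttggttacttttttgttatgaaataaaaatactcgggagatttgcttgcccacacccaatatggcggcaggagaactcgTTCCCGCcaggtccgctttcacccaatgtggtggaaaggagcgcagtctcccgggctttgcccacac

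In Top2a the CHR word began 179 and 23 bases before the start among 6 CCAAT boxes, and in Mki67 116 and 98 bases before it. In Ccnb2 it began 167 bases before the start and again at base 5 from the start, outside the stretch shown. The E2F word began 109 and 46 bases before the start of Mcm6, 164 and 149 before that of Mcm5, and 67 before that of Rrm1.

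Among the S phase members, 22 of 24 were higher with the label KO and 2 lower. Their log2 fold changes lay between -0.71 and 2.45 with a median of 1.31. The groups did not overlap for 17 of the 22 (25.3% of all genes were higher without overlap). At an unadjusted p below 0.05 in edgeR there were 12, beside 9.44% of all genes, and after adjustment 0. DESeq2 called 5 (Cdk2, Cdc6, Cdc45, Rrm2 and Tyms), beside 2.96% of all genes. Without WT 1 the median was 0.79.

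The genes that open S phase were the cyclin E genes Ccne1 and Ccne2 and their kinase gene Cdk2. Cdk2 had 39, 125, 473 and 419 counts in the order WT 1, WT 2, KO 1, KO 2, or 11.7, 31.0, 90.0 and 73.1 normalized CPM. Its log2 fold change was 1.93 ± 0.54 (SE, 2 libraries per group, edgeR adjusted p = 0.175). Ccne2 stood at 3.31, 3.72, 30.3 and 8.38 normalized CPM, with a log2 fold change of 2.45 ± 0.75 (edgeR adjusted p = 0.216), which was 1.25 without KO 1 and 1.41 with the trend on GC content removed. Ccne1 differed less, at 9.62, 18.1, 23.0 and 27.6 normalized CPM. For all 3 genes the libraries labeled KO lay above those labeled WT.

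Origins of replication are licensed when Cdc6 and Cdt1 load the MCM helicase, and they fire when Cdc45 and the GINS complex join it. Cdc6 (4.21, 13.6, 42.1 and 35.4 normalized CPM) and Cdc45 (5.11, 5.20, 20.4 and 32.3) were low in the libraries labeled WT. Their log2 fold changes were 2.1 ± 0.62 and 2.35 ± 0.57 (SE, edgeR adjusted p = 0.189 and 0.128). Cdt1 went the other way, with 58.6, 47.8, 25.1 and 40.0 normalized CPM and a log2 fold change of -0.71 ± 0.46 (edgeR adjusted p = 0.518). That value was -0.30 with the trend on GC content removed. Gins2, a GINS subunit, stood at 50.5, 51.0, 41.1 and 30.4 normalized CPM, but 67.3% of its exonic bases overlap Gse1 on the other strand, and the counting was not stated to use strand. Cdc45 and Cdc6 were thus among the S phase genes with the largest differences, while Cdt1 and Gins2 were the 2 members of the class that were lower.

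The 6 subunits of the MCM helicase were all higher with the label KO, with log2 fold changes from 1.0 (Mcm7) to 1.70 (Mcm6). Mcm6, the second most counted S phase gene, had 111, 366, 843 and 1394 counts, or 33.4, 90.6, 160 and 243 normalized CPM (edgeR adjusted p = 0.236). Mcm5 had 152, 387, 457 and 1251 counts, or 45.7, 95.8, 87.0 and 218 normalized CPM, so that KO 1 lay below WT 2. Mcm4 had the smallest standard error (SE) of the 6, at 20.7, 27.0, 76.3 and 65.4 normalized CPM (23.9 ± 4.42 against 70.9 ± 7.68, SD, n = 2 each). Its log2 fold change was 1.57 ± 0.44 (SE, edgeR adjusted p = 0.175). For Mcm2, Mcm3, Mcm5, Mcm6 and Mcm7 the order of the libraries was nearly the same, lowest in WT 1 and highest in KO 2. Mcm10, which is not part of the helicase ring but helps to activate it, stood at 6.31, 5.45, 14.5 and 26 normalized CPM.

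Pcna, the sliding clamp of DNA polymerases, had the highest mean count of the S phase genes. It had 460, 504, 1493 and 635 counts, or 138, 125, 284 and 111 normalized CPM, and the groups overlapped because KO 2 was the lowest library and KO 1 the highest. The log2 fold change was 0.59 ± 0.52 (SE, edgeR adjusted p = 0.649) and turned to -0.25 without KO 1. Pseudogenes named Pcna-ps1 and Pcna-ps2 are annotated, and reads shared with them may have been lost. The catalytic subunits of the replicative polymerases were also unsettled. Pola1 stood at 0.902, 5.70, 12.7 and 2.79 normalized CPM and Pold1 at 25.5, 57.7, 33.9 and 109.6, both with overlapping groups, while Pole (2.1, 9.91, 11.4 and 20.8) did not overlap. Without KO 1 the log2 fold change of Pola1 was -0.26, and without KO 2 that of Pold1 was -0.30. Of the remaining genes around the fork, Rfc4, a subunit of the clamp loader, was at 18.3 and 24 against 60.5 and 48.9 normalized CPM, and Uhrf1, which guides maintenance of DNA methylation, at 25.2 and 65.9 against 67.5 and 107.

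Genes for the supply of nucleotides included some of the larger differences. Rrm2, the regulated subunit of ribonucleotide reductase, stood at 5.11, 41.9, 116 and 110 normalized CPM, with a log2 fold change of 2.26 ± 0.77 (SE, edgeR adjusted p = 0.256). WT 2 lay 8.19-fold above WT 1, a wider gap than that between WT 2 and either library labeled KO. Without WT 2 the log2 fold change was 4.44 and passed the threshold (edgeR adjusted p = 0.00515, within a range from 0.000643 to 1 over the alternatives). Rrm1, the large subunit, was at 25.8, 81.2, 126 and 195 normalized CPM. Tyms, the thymidylate synthase gene, was at 9.02, 22.3, 79.7 and 48.9 (log2 fold change 2.03 ± 0.56, edgeR adjusted p = 0.168). Tk1, a thymidine kinase gene of the salvage route, had 13.5 in WT 1 and between 43.6 and 56.0 normalized CPM in the other libraries, so that its groups overlapped.

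**Figure D2:**
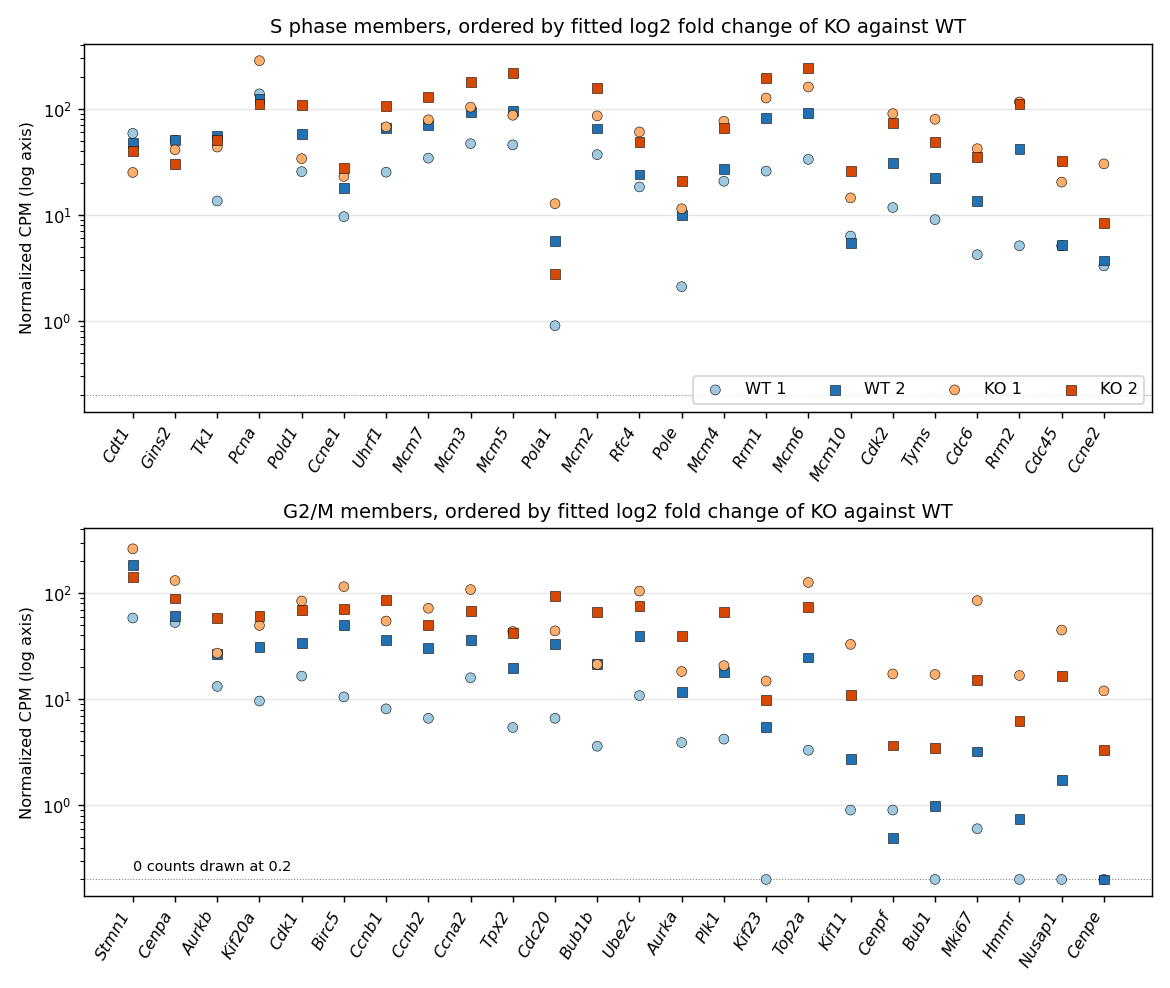
Normalized CPM (y axis, log scale) of the 24 S phase members (top) and the 24 G2/M members (bottom) in each library, ordered by fitted log2 fold change of KO against WT, with genes at 0 counts drawn at 0.2. Orange symbols (KO 1, KO 2) lie above blue ones (WT 1, WT 2) for 17 S phase and 23 G2/M genes, and WT 2 lies above WT 1 for most genes.

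All 24 G2/M members were higher with the label KO. The median log2 fold change was 1.82, and the values lay between 0.74 and 5.02 apart from that of Cenpe, which had 0 counts with the label WT and is given as a bound. The groups did not overlap for 23 of them, beside 25.3% of all genes, Stmn1 being the exception. In edgeR, 19 had an unadjusted p below 0.05, beside 9.44% of all genes, and 0 an adjusted p below 0.05. DESeq2 called 8 (Mki67, Top2a, Bub1, Kif11, Cenpe, Cenpf, Nusap1 and Hmmr), beside 2.96% of all genes. Bub1, Cenpe, Cenpf, Nusap1 and Hmmr passed the filter through the libraries labeled KO alone, so their part in these counts is no support. Among the other 19, the groups did not overlap for 18, 14 had an unadjusted p below 0.05 in edgeR, DESeq2 called 3, and the median was 1.77. Of the 11178 genes that reached the minimum in both groups, 21.7%, 6.74% and 1.71% were higher by these measures, in the same order. The median of all 24 moved with the library labeled WT that was used: it was 3.26 without WT 2 and 1.16 without WT 1.

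Mki67, the gene of the Ki-67 protein that coats mitotic chromosomes, had 2, 13, 447 and 87 counts, or 0.601, 3.22, 85.1 and 15.2 normalized CPM. The log2 fold change was 4.65 ± 0.98 (SE, edgeR adjusted p = 0.0788), and KO 1 lay 5.60-fold above KO 2. The log2 fold change was 2.93 without KO 1 and 6.28 without WT 2. The latter rests on 2 counts in WT 1, fewer than the floor of 3 counts per library used here. Top2a, the topoisomerase that untangles replicated chromosomes, had 11, 100, 664 and 425 counts, or 3.31, 24.8, 126 and 74.2 normalized CPM (log2 fold change 2.82 ± 0.78, edgeR adjusted p = 0.173). Its log2 fold change was 4.88 without WT 2 (adjusted p = 0.00243) and 1.99 without WT 1 (adjusted p = 0.629). Both genes were lowest in WT 1 and highest in KO 1, and WT 2 lay below both libraries labeled KO.

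The mitotic cyclins and their kinase differed by similar amounts. Ccna2, Ccnb1, Ccnb2 and Cdk1 had log2 fold changes between 1.60 and 1.76, and in each the libraries labeled KO lay above those labeled WT. Cdk1 stood at 16.5, 34.2, 84.5 and 69.3 normalized CPM (25.4 ± 12.5 against 76.9 ± 10.7, SD, n = 2 each, edgeR adjusted p = 0.221). Ccnb1 was at 8.12, 36.4, 54.6 and 86.4 and Ccnb2 at 6.61, 30.5, 72.1 and 49.7 normalized CPM, so that KO 2 was the highest library for Ccnb1 and KO 1 for Ccnb2. Pseudogenes of both are annotated (Ccnb1-ps and Ccnb2-ps). Ccna2, at 15.9, 35.9, 108 and 68.4 normalized CPM, shares 12.5% of its exonic bases with Exosc9.

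The anaphase-promoting complex, the ubiquitin ligase that ends mitosis, was represented by its activator Cdc20 and its conjugating enzyme Ube2c. Cdc20 was at 6.61, 32.9, 44.1 and 94.9 normalized CPM and Ube2c at 10.8, 39.6, 105 and 75.2. Their log2 fold changes, 1.80 ± 0.72 and 1.83 ± 0.61 (SE, edgeR adjusted p = 0.312 and 0.244), were close to the median of the class. Ube2c shares 22.8% of its exonic bases with Tnnc2.

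Mitotic kinases and checkpoint genes spanned a wide range of levels. Birc5, the survivin gene, had 35, 204, 605 and 409 counts, or 10.5, 50.5, 115 and 71.4 normalized CPM (log2 fold change 1.60 ± 0.67, edgeR adjusted p = 0.340). Plk1, a kinase active from mitotic entry to exit, was at 4.21, 18.1, 20.7 and 66.8 normalized CPM, and the checkpoint kinase gene Bub1b at 3.61, 21.3, 21.3 and 67.0. For these last 2 genes WT 2 and KO 1 were side by side and KO 2 stood alone. The Aurora kinase genes Aurka (3.91, 11.6, 18.3 and 39.1 normalized CPM) and Aurkb (13.2, 26.7, 27.2 and 57.9) had the same order. Bub1 had 0, 4, 90 and 20 counts, a ratio of pooled counts of 18.4 (exact Poisson 95% interval from 7.0 to 68.9, counting error only). It was thus highest in KO 1, unlike Bub1b.

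Genes of the spindle held the smallest p-value among the members, that of Nusap1. Both Nusap1 and Hmmr passed the filter through the libraries labeled KO alone and had to be higher, so their p-values are no support. Nusap1, whose protein bundles spindle microtubules, had 0, 7, 236 and 94 counts, or 0, 1.73, 44.9 and 16.4 normalized CPM (log2 fold change 5.02 ± 1.03, SE, edgeR adjusted p = 0.0700). Over the alternatives its adjusted p ran from 1.29e-07 to 0.1252, the highest being that without KO 1. Without WT 1 the log2 fold change was 4.10, and without WT 2 none is given, since WT 1 had 0 counts. The kinesin gene Kif11 had 3, 11, 173 and 63 counts (log2 fold change 3.55 ± 0.82, edgeR adjusted p = 0.111), and Hmmr, a spindle assembly factor, 0, 3, 88 and 36, a pooled ratio of 27.7 (exact Poisson 95% interval from 9.26 to 136). These 3 genes had few counts in both libraries labeled WT. Kif23 had 0 counts in WT 1 and 22 in WT 2, against 78 and 56, and Kif20a was at 9.62, 31.2, 49.7 and 60.9 normalized CPM with 29.3% of its exonic bases shared with Cdc23. Tpx2, which activates Aurora A on the spindle, was at 5.41, 19.6, 43.6 and 42.1 normalized CPM. Stmn1, the gene of the microtubule destabilizer stathmin and the most counted of the class, had 194, 740, 1377 and 811 counts, or 58.3, 183, 262 and 142 normalized CPM, so that WT 2 lay above KO 2 (log2 fold change 0.74 ± 0.59, edgeR adjusted p = 0.606).

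Among centromere genes, Cenpe, a kinetochore motor gene, had 0, 0, 63 and 19 counts, at least 9.30-fold higher against a floor of 3 counts per library (edgeR adjusted p = 0.0961). The bound was 14.6-fold with KO 1 alone and 4.03-fold with KO 2 alone. Cenpf had 3, 2, 91 and 21 counts, a pooled ratio of 15.0 (exact Poisson 95% interval from 6.25 to 47.1). Cenpa, the centromeric histone gene, was far more abundant, with 176, 248, 692 and 511 counts, or 52.9, 61.4, 132 and 89.2 normalized CPM (log2 fold change 0.95 ± 0.43, edgeR adjusted p = 0.373). In all 3 KO 1 lay above KO 2. The median of the G2/M class, 1.82, could not move with Cenpe at its bound, since the bound also lies above that median. Cenpe and Cenpf passed the filter through the libraries labeled KO alone and had to be higher.

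The transcription factors of the 2 waves did not share a direction. E2f1, an activator of S phase genes, had 185, 209, 147 and 273 counts, or 55.6, 51.8, 28.0 and 47.6 normalized CPM, lower in both libraries labeled KO (log2 fold change -0.50 ± 0.46, SE, edgeR adjusted p = 0.658). E2f2 had 37, 69, 93 and 90 counts, or 11.1, 17.1, 17.7 and 15.7 normalized CPM, with groups that overlapped. Foxm1 had 11, 32, 70 and 77 counts, or 3.31, 7.93, 13.3 and 13.4 normalized CPM (log2 fold change 1.24 ± 0.66, edgeR adjusted p = 0.445). Mybl2 had 21, 35, 69 and 191 counts, or 6.31, 8.67, 13.1 and 33.3 normalized CPM (log2 fold change 1.63 ± 0.63, edgeR adjusted p = 0.3002). The factors of the G2/M wave were thus higher with the label KO without overlap and those of the E2F family were not, although none passed the threshold and the difference between them was not tested. With the trend on GC content removed, the log2 fold changes were -0.098 for E2f1, 0.65 for E2f2, 1.54 for Foxm1 and 1.92 for Mybl2.

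The 5 regulators of G1 had the class median nearest to 0 (log2 fold change -0.15). Ccnd1 (cyclin D1) had 328, 480, 346 and 373 counts, or 98.6, 119, 65.8 and 65.1 normalized CPM, lower in both libraries labeled KO (log2 fold change -0.73 ± 0.41, SE, edgeR adjusted p = 0.458), and 23.4% of its exonic bases overlap those annotated as LTO1. Ccnd2 (cyclin D2) had 131, 464, 918 and 632 counts, or 39.4, 115, 175 and 110 normalized CPM, with KO 2 just below WT 2. Ccnd3 (cyclin D3) had 439, 713, 604 and 938 counts, or 132, 177, 115 and 164 normalized CPM. Its log2 fold change was -0.15 ± 0.44 (edgeR adjusted p = 0.910) and was 0.16 with plain library totals, 0.22 with the trend on GC content removed, 0.053 without WT 2 and 0.085 without KO 1. Cdkn1a had 4125, 2512, 2300 and 6051 counts, or 1240, 622, 438 and 1056 normalized CPM, the highest level per kilobase of exon of all members in both groups. The libraries alternated, so that the difference of -0.32 ± 0.60 (edgeR adjusted p = 0.847) had no fixed direction, being 0.023 with plain library totals, 0.25 without WT 1 and 0.18 without KO 1. Cdkn1b was low, with 14, 21, 55 and 30 counts, or 4.21, 5.20, 10.5 and 5.24 normalized CPM.

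Per kilobase of exon, the mean normalized CPM in the libraries labeled KO was 210.2 for Cdkn1a, 105 for Stmn1, 82.3 for Pcna, 43.3 for Mcm6 and 40.9 for Rrm2, the 5 highest of the 57. The lowest was Cenpf with 0.680. In the libraries labeled WT the first 3 were the same, at 262 for Cdkn1a, 62.8 for Stmn1 and 54.8 for Pcna, followed by Ccnd1 at 23.1. Rrm2, at 8.47 there, ranked 21, so that its place in the order differed between the labels more than that of the genes above it.

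Summed over its 24 genes, the S phase class reached 631, 1107, 1714 and 2072 normalized CPM in the order WT 1, WT 2, KO 1, KO 2. The mean log2 difference between the labels was 1.17 (2.25-fold), with both libraries labeled KO above both labeled WT. The G2/M class summed to 232, 673, 1525 and 1223 normalized CPM, a log2 difference of 1.79 (3.45-fold), again without overlap. The exact permutation test over libraries (two-sided) gave p = 0.333 for each, which is the smallest p that 2 libraries against 2 allow. The ratio of the S phase sum to the G2/M sum was 2.72, 1.64, 1.12 and 1.69, so the groups overlapped (log2 difference -0.62, exact permutation p = 0.667). The groups did not overlap with class means of log2(CPM + 1), which gave a difference of -0.94, or without the 2 most counted members of each class, which gave -1.01 (exact permutation p = 0.333 for each). With a library left out, the difference of the ratio ran from -0.25 (without WT 1) to -0.98 (without WT 2). Without WT 1 the log2 differences were 0.77 for S phase and 1.02 for G2/M, and without WT 2 they were 1.58 and 2.56. Plain library totals raised both differences, to 1.51 and 2.12, and shifted the median of all genes to 0.39. Under each scaling tried, 51 or more members were higher and 0 passed the threshold in edgeR.

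**Figure D3:**
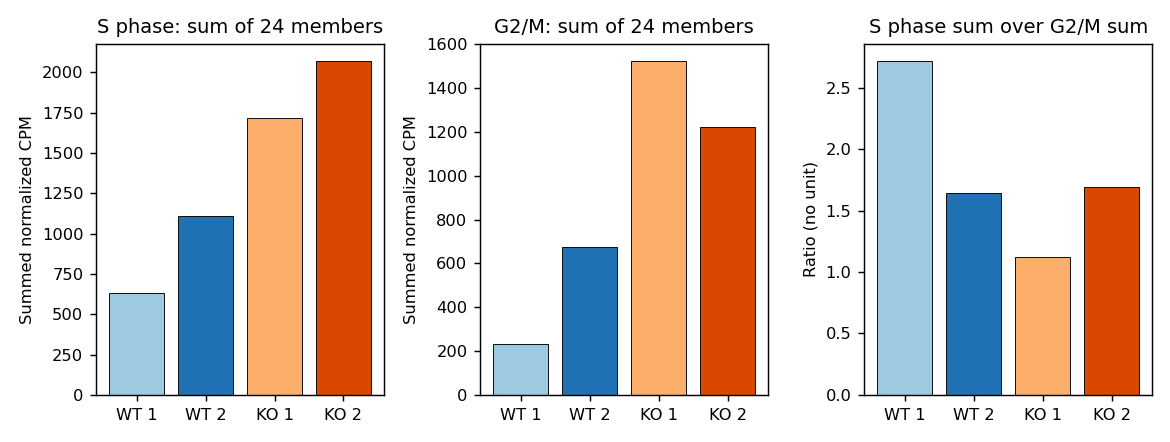
Summed normalized CPM of the S phase class (left) and the G2/M class (middle) and their ratio (right) in each library, with 1 bar per library and axes from 0. Both sums are lowest in WT 1 and higher in KO 1 and KO 2 than in WT 2, and the ratio of KO 2 (1.69) lies between those of WT 2 (1.64) and WT 1 (2.72).

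The libraries of a group were unlike each other in these genes. WT 2 lay above WT 1 for 50 of the 57 members (beside 6000 of all 11837 genes), by 1.75-fold in the S phase sum and 2.90-fold in the G2/M sum. The spread between the libraries labeled KO had no common direction: KO 1 lay above KO 2 for 31 members (10 of 24 S phase and 17 of 24 G2/M genes) and below it for 26. For Mki67, Pcna, Nusap1, Cenpe and Ccne2, KO 1 was the higher by between 2.56-fold and 5.60-fold, while for Plk1, Bub1b and Pold1 KO 2 was the higher by between 3.14-fold and 3.24-fold.

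That split ran along the GC content of the transcripts. Of the 28 members whose longest transcript had a GC content below the members' median of 48.8%, 23 were higher in KO 1 than in KO 2, and of the 29 at or above it, 8 were. Across the 57 members the log2 ratio of KO 1 to KO 2 (of normalized CPM + 1) had a Pearson r of -0.72 and a Spearman rho of -0.73 with GC content, beside -0.37 and -0.39 over 11671 genes with a GC value. The fitted difference between the labels was likewise lower at higher GC content, with r of -0.59 and rho of -0.57 over the members and -0.31 and -0.42 over all genes. Genes share the libraries and are not independent replicates, so that these values are descriptions. The median log2 fold change was 1.76 for the members below the median GC content and 1.09 for the others. With the trend on GC content removed from every library, the medians were 1.21 for S phase and 1.92 for G2/M. Then 52 members were higher with the label KO, and 2 passed the threshold in edgeR (beside 1.45% of all genes called higher). These were Mki67 (log2 fold change 4.35, adjusted p = 0.0208) and Nusap1 (4.37, adjusted p = 0.0223). Nusap1 passed the filter through the libraries labeled KO alone, so its call is no support. Over all alternatives the adjusted p of Mki67 ran from 1.2e-08 to 0.173. Whether GC content had a part in the differences was not tested further.

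**Figure D4:**
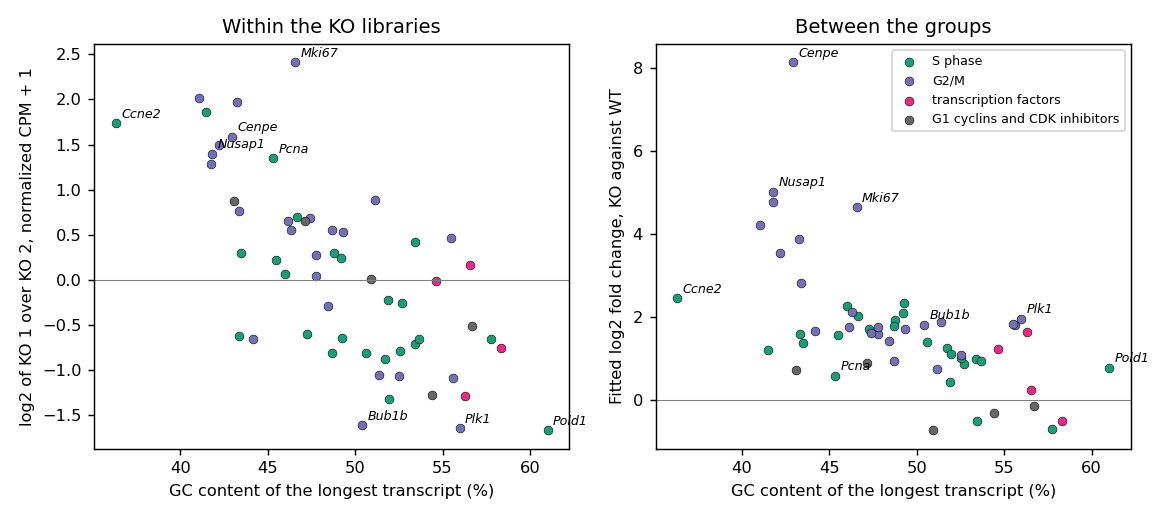
GC content of the longest transcript (x axis, percent) of each of the 57 members against the log2 ratio of KO 1 to KO 2 (left, normalized CPM + 1) and the fitted log2 fold change of KO against WT (right), with 1 point per gene colored by class. Points slope down in both panels (r of -0.72 and -0.59), and most points lie above 0 in the right panel. The value of Cenpe there depends on the prior count, since it had 0 counts with the label WT.

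The rest of the pathway was read from 3 further lists compiled by function, also with earlier results of these data known. Of 36 other S phase genes, 35 were tested, 33 were higher with the label KO, and the median log2 fold change was 0.97. Of 38 other G2/M genes, 37 were tested, 36 were higher, and the median was 1.74. Of 17 other G1 genes and inhibitors, 15 were tested, 11 were higher, and the median was 0.37. In edgeR, 0 genes of these lists passed the threshold. At an unadjusted p below 0.05 there were 15, 25 and 1 in the same order, all higher, beside 9.44% of all genes tested, a share that the G1 list (6.67%) did not reach. DESeq2 called 7 in all, beside 2.96% of all genes called higher. Of these genes, 3 S phase and 6 G2/M genes passed the filter through the libraries labeled KO alone and had to be higher. Without them 12 of 32, 19 of 31 and 1 of 15 had such a p. Of the 11178 genes that reached the minimum in both groups, 6.74% had one and were higher, close to the 6.67% of the G1 list. DESeq2 then called 2, 1 and 0 genes in the same order, beside 1.71% of those 11178. The smallest adjusted p was 0.0636, for Ect2, a regulator of cytokinesis chosen here after its values were seen. Ect2 had 2, 3, 86 and 55 counts (log2 fold change 4.21 ± 0.84, SE) and is one of the 6. The order of the medians, with G2/M genes above S phase genes and G1 genes lowest, was the same as among the 57 members.

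Marker lists of cell types also differed between the libraries. In the order WT 1, WT 2, KO 1, KO 2 the 10 T cell markers summed to 81.2, 112, 2077 and 1158 normalized CPM, and the 8 melanoma markers to 273, 282, 2041 and 1236, with counts for every marker of both lists in every library. The 13 macrophage and monocyte markers, all with counts in every library, summed to 36332, 42688, 20264 and 27219, and so were lower with the label KO. The 6 markers of fibroblasts or endothelium summed to 24.6, 18.8, 1258 and 191, with Dcn and Pdgfrb at 0 counts in both libraries labeled WT, Col1a1 at 0 in WT 2 and Pdgfrb at 0 in KO 2. The 8 dendritic cell markers summed to 65.2, 96.1, 226 and 104, with Flt3 at 0 in WT 1 and KO 2 and Xcr1 at 0 in WT 1. Each count on a T cell marker was accompanied by 7.78 and 9.87 counts on S phase genes in the libraries labeled WT and by 0.825 and 1.79 in those labeled KO. For G2/M genes the figures were 2.86 and 6.0 against 0.734 and 1.06. Relative to T cell markers, both classes were therefore lower with the label KO, while relative to all gene counts they were higher. The part of cell type composition in the differences was not tested.

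**Figure D5:**
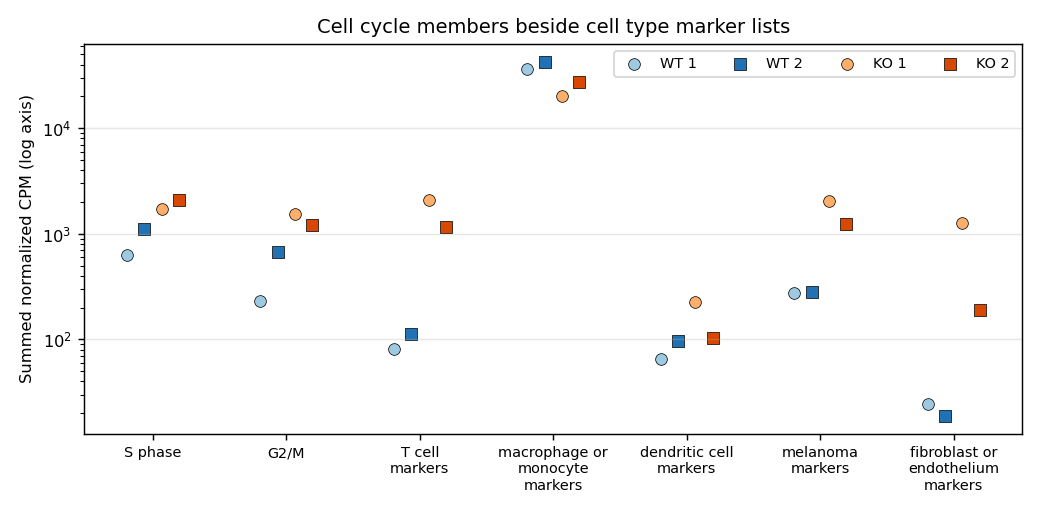
Summed normalized CPM (y axis, log scale) of the S phase and G2/M classes and of 5 cell type marker lists in each library. T cell, melanoma and fibroblast or endothelium markers are higher in KO 1 and KO 2 than in WT 1 and WT 2, as the cell cycle sums are, and macrophage or monocyte markers are the highest list in all 4 libraries.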

How the data were processed

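Per the labels, RNA was measured in 4 libraries (2 WT, 2 KO). Raw read counts for each gene symbol were deposited by the authors as whole numbers, made with HISAT2 2.1.0 and HTSeq 0.11.0 on mm10 per the submitters' processing notes. The annotation, strand setting and trimming are not given in the sources used here. Rows that name no gene, between 71.2% and 79.5% of all reads, were left out. Of 55367 rows, 53292 (96.3%) matched a symbol of GENCODE M21, used for exonic lengths, overlaps and GC content.

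Counts were fitted in R 4.3.3 with edgeR 4.0.16 (filterByExpr with a minimum count of 10 and a total of 15, TMM scaling, glmQLFit and glmQLFTest, group as the only term, prior count 0.125). P-values were two-sided, with Benjamini-Hochberg adjustment over the 11837 genes tested and a threshold of 0.05. SE is the log2 fold change divided by the square root of F. The common biological coefficient of variation was 42.5%. Class sums were compared by exact permutation over libraries (scipy 1.17.1). Pooled ratios have exact Poisson 95% intervals, and the floor was 3 counts per library. Both cover counting error only, because the libraries carried no molecular identifiers that are stated.

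The members and lists were chosen with earlier results of these data known. All 57 members may be named. Counts in every library are given for members past the threshold, the 3 members of S phase and of G2/M with the highest mean count, and all transcription factor, G1 cyclin and CDK inhibitor members. Of the other cell cycle genes, those past the threshold are named, up to 5 per list by lowest p, and of non-members Satb1 and marker lists as sums. A further marker list is not reported here. Other genes, and counts of other members, were chosen after their values were seen. Alternatives were DESeq2 1.42.0 and its size factors, upper-quartile factors, no filter, a replicate block, class means of log2(CPM + 1), the class ratio without its most counted members and leaving out each library. Plain library totals, trends on GC content or exonic length removed (lowess, span 0.3) and a crossed block were added after seeing the data. Scripts were tested on simulated data.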

Additional observations from a re-analysis of the deposited data

How the results depend on the processing

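Over all genes, the 68 calls became 134 with plain library totals, 583 without a filter on low counts, 215 with the replicate block, 184 with the GC trend removed, 416 in DESeq2 and between 102 (without KO 1) and 818 (without KO 2) with a library left out. The 0 calls among the members became 18 without the filter, 7 with the replicate block, 2 with the GC trend removed, 13 in DESeq2 and 0 to 13 with a library left out. For the other cell cycle genes the 0 calls became 2, 15, 2, 2 and 7 with library totals, no filter, the block, the GC trend removed and DESeq2, and 0 to 13 with a library left out. The replicate numbers were not shown to pair the libraries, since WT 1 and KO 1 deviated from their group means with a correlation of -0.19 over 11837 genes. With the numbers crossed, a pairing tried after seeing the data, 647 genes, 26 members and 21 other cell cycle genes were called. The calls among the members included genes such as Nusap1 that passed the filter through the libraries labeled KO alone, which are no support. The cause was not tested for any of these shifts.

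The median of G2/M members ran from 1.16 to 3.26 with a library left out and that of S phase members from 0.79 to 1.75. The direction of the class sums and of both medians held under every alternative run. Of single members, Ccnd3 turned to 0.16 with library totals and 0.22 with the GC trend removed, and Cdkn1a to 0.023 with library totals. With a library left out, log2 fold changes that changed sign ran from -0.25 to 1.11 for Pcna, -0.26 to 1.78 for Tk1, -0.26 to 3.03 for Pola1, -0.30 to 1.47 for Pold1, -0.052 to 0.56 for E2f2, -0.43 to 0.085 for Ccnd3 and -1.09 to 0.25 for Cdkn1a. The cause was not tested. With a library left out, the lone library of its group is assumed to vary like the other group. Genes with few counts in the libraries labeled WT, such as Cenpe, Bub1 and Hmmr, are limited by depth, and their fitted fold changes depend on the prior count.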
